A study of Homo sapiens with 18 samples.

Results

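The genes described here are 37 genes of cholesterol and fatty acid synthesis and of its control. They were chosen by symbol and matched through their Ensembl identifiers to the gene count table of BxPC-3, an established human pancreatic adenocarcinoma cell line, and all 37 of 37 symbols were found among 58395 lines. The cells had been kept in a complete medium with fetal bovine serum, and the labels leave unsaid whether serum was removed before treatment. They received phosphate-buffered saline (PBS, the vehicle), 80 ng/ml of hepatocyte growth factor (HGF, which binds the receptor tyrosine kinase MET) or 100 ng/ml of macrophage stimulating protein (MSP, the ligand of the related receptor RON, encoded by MST1R). RNA was taken 1 h or 4 h later, and the series compares what these ligand and receptor systems do to the transcriptome. Each of the 6 groups held 3 libraries, 18 in all. Whether the 3 libraries of a group came from separate cultures is not stated in the labels, so p-values measure only their spread, which may be technical.

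Cells make cholesterol from acetyl-CoA through mevalonate, isoprenoid pyrophosphates and squalene, and they make fatty acids from the same precursor. Both routes are driven by the SREBP transcription factors, encoded by SREBF1 and SREBF2. When membrane sterol is plentiful, the SREBP precursors are held in the endoplasmic reticulum by SCAP and the INSIG proteins, and when it falls SCAP escorts them to the Golgi, where they are cleaved and released to the nucleus. Cholesterol in excess is exported by ABCA1 and ABCG1, which are targets of the oxysterol-sensing LXR receptors. Pancreatic adenocarcinoma cells are known to rely on both synthesis and uptake of these lipids.

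Because many of these genes share promoter elements, the sequences upstream of 7 of them are shown before the expression values. NF-Y, a trimeric factor that works with SREBPs at many of these promoters, binds the pentamer CCAAT. The windows are RefSeq sequences on GRCh38.p14, each 250 bases long and written 5′ to 3′ on the strand of the gene. They were picked after the expression values were seen, for genes with large changes and for contrast. In HMGCS1 at chr5:43313413-43313662 (minus strand), STARD4 at chr5:111512536-111512785 (minus strand) and MSMO1 at chr4:165327419-165327668 (plus strand), capitals mark CCAAT or its reverse complement.

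HMGCS1: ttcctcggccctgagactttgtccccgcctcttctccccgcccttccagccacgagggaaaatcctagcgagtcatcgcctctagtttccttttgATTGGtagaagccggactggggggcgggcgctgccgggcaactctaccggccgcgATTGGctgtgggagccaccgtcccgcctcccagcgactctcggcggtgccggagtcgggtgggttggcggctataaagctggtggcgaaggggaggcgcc

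STARD4: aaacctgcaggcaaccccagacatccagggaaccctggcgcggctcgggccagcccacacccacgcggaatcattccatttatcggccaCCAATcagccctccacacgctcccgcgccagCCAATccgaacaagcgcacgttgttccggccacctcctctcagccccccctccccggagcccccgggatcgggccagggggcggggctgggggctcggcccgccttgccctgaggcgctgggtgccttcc

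MSMO1: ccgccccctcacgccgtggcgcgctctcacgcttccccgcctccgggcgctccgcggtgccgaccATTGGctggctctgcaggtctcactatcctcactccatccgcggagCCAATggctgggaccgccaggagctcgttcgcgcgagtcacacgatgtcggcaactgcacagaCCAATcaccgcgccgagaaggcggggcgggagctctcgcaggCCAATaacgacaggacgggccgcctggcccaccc

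In INSIG1 at chr7:155297628-155297877 (plus strand), capitals mark CCAAT and the E-box CACGTG on either strand. In SREBF2 at chr22:41832855-41833104 (plus strand), they mark CCAAT and TCACNCCAC, a form of the sterol regulatory element.

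INSIG1: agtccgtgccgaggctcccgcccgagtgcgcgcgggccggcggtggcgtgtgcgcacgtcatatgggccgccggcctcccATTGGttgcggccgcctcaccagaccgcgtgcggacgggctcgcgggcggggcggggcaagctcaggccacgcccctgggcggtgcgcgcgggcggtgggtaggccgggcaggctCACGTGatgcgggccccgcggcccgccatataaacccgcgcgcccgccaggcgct

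SREBF2: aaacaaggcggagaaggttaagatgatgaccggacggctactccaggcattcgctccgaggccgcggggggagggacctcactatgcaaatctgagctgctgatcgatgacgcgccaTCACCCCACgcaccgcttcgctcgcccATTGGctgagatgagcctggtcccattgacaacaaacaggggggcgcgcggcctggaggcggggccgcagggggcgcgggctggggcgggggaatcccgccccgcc

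GPAT3 at chr4:83535857-83536106 (plus strand) and ABCA1 at chr9:104928156-104928405 (minus strand) held no CCAAT in these windows. Capitals mark matches on either strand, in GPAT3 to a looser sterol-element pattern, TCACNCNAC, and in ABCA1 to CACGTG.

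GPAT3: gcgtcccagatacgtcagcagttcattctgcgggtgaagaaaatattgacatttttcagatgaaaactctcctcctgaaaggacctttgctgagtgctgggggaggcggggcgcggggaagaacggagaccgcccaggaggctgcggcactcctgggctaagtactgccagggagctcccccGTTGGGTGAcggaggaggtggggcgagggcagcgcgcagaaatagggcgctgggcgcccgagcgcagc

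ABCA1: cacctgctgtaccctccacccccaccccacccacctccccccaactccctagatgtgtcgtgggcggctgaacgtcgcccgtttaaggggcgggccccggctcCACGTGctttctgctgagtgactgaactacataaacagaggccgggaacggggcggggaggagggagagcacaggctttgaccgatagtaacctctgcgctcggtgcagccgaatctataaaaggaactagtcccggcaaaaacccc

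RefSeq promoter windows, from 250 bases before to 50 bases after a start site, were found for 32 of the 37 genes. ABCG1, ACAT2, FASN, FDFT1 and SQLE had none. CCAAT, searched on both strands, occurred in at least 1 window of 23 of the 32 genes (71.9%), against 39.7% of all genes with a window. TCACNCNAC occurred in 6 of 32 (18.8%) against 3.13% of all genes, and the stricter TCACNCCAC, every match of which is also a match of TCACNCNAC, in 1 of 32, SREBF2 (3.12%), against 1.39%. The GC box GGGCGG occurred in 31 of 32 (96.9%) against 48.3%, and CACGTG in 5 of 32 (15.6%) against 8.77%. All genes with a window were taken for comparison, whether expressed in these cells or not. A gene can have several windows. Counted per window, CCAAT occurred in 58.7% of 46 against 34.6% of 35116, and GGGCGG in 89.1% against 45.0%. These matches describe letters and no binding was measured.

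The libraries held 30556613 to 48477215 counts. Of the 37 genes, 35 passed the filter on low counts. GGPS1, geranylgeranyl diphosphate synthase, had 43 counts over the 18 libraries, and CYP51A1, lanosterol demethylase, had 10, so neither was tested. In GENCODE 29 these 2 genes share 41.0% and 83.2% of their exon length with other annotated genes. Levels below are CPM, counts scaled by library size and TMM factor. A call is an adjusted p under 0.05 over all 16794 genes tested, and fold changes are log2 values with their standard error (SE). Of 9 ductal epithelial markers, 8 passed the filter, while 25 of 34 markers of other cell types stayed under 1 CPM in every library. The summed level of 4 endothelial markers was 2.84 to 3.35 CPM after HGF at 4 h and 7.26 to 7.85 after vehicle. Of these markers VWF had the highest median over all libraries, 5.25 CPM, with a log2 change of -1.89 after HGF at 4 h. KDR had no counts in any of the 18 libraries. MET was at 763 to 1068 CPM and MST1R at 56.4 to 134 CPM. The share of counts from mitochondrial genes was 9.18% ± 0.236 after vehicle and 7.94% ± 0.2 after HGF at 1 h, and 8.82% ± 0.142 and 6.17% ± 0.053 at 4 h (SD, n = 3). TMM factors were 0.841 to 0.860 after HGF at 4 h and 1.036 to 1.039 after vehicle, and the part of these differences in the results was not tested. These markers were read in bulk RNA of an established cell line, and why their levels changed was not tested.

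The levels differed widely among the genes. In vehicle at 4 h, per kb of annotated exon, SCD (stearoyl-CoA desaturase) stood highest at 703 ± 27 CPM per kb (SD, n = 3). FDFT1 (squalene synthase) followed at 101 ± 3.96 and HMGCS1 (HMG-CoA synthase) at 84.9 ± 3.96 CPM per kb. At the low end were ABCA1 at 1.85 ± 0.19, FADS2 at 1.42 ± 0.131, GPAT3 at 1.3 ± 0.0796 and ABCG1 at 1.05 ± 0.149 CPM per kb. FADS2 and GPAT3, which are neighbours in that order, lie within the spread of their libraries. After HGF at 4 h HMGCS1 stood second at 314 ± 18 CPM per kb, above FDFT1 at 136 ± 3.81.

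**Figure D1:**
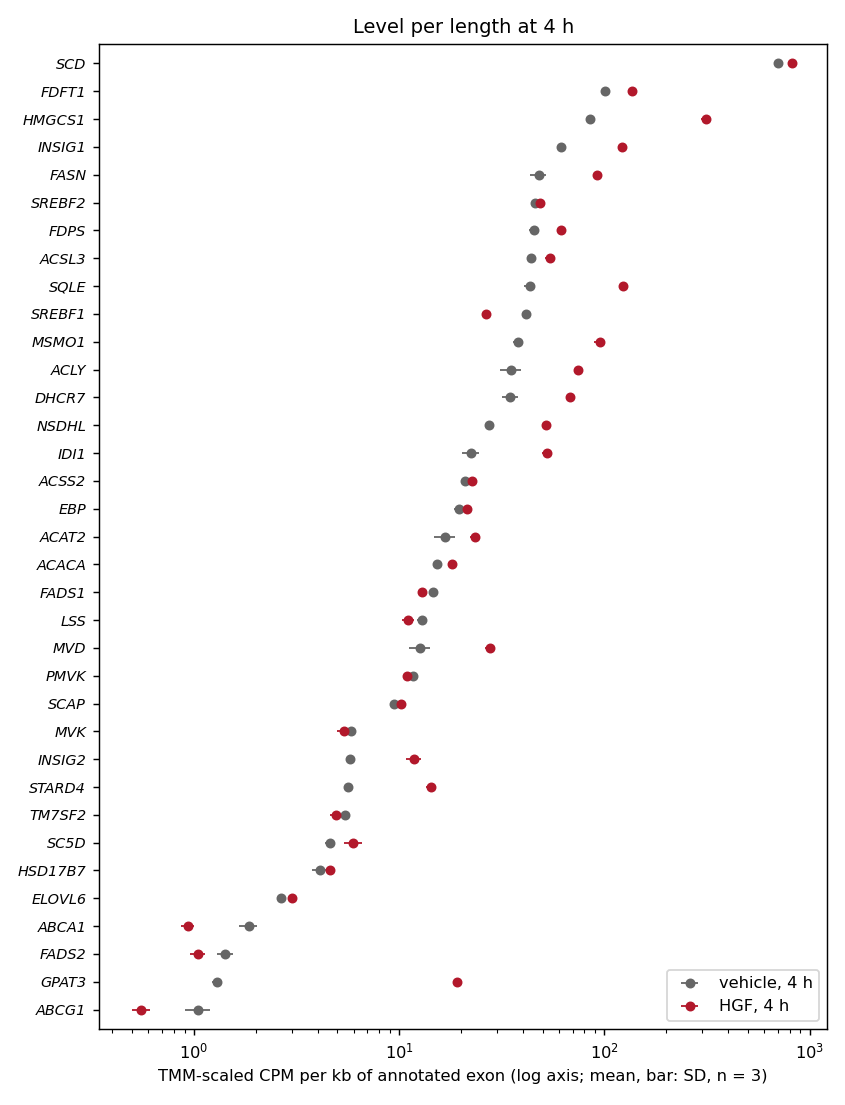
Mean level of each of the 35 tested genes at 4 h in TMM-scaled CPM per kb of annotated exon, on a log axis, after vehicle (grey) and HGF (red); bars are the SD of 3 libraries. SCD is highest in both groups, and GPAT3 moves farthest, from near the bottom.

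At 1 h of HGF, 10 of the 35 genes rose and none fell. The risers were the feedback regulator INSIG1, the sterol transfer protein STARD4, SREBF1, GPAT3 and 6 enzymes of the sterol pathway: HMGCS1, MVD, IDI1, SQLE, MSMO1 and EBP. Of all tested genes 13.8% were called higher and 7.16% lower, or 21% in all, against 28.6% and 0% of these. Every HGF library lay above every vehicle library in 13 of the 35 genes (37.1%), the 10 called among them, and below in 3 (8.6%), against 20.1% and 15.6% of all genes. The median log2 fold change was 0.05 here and -0.00 over all genes. Scaled by library totals in place of TMM, the split was 7 higher and 6 lower, with the median of all genes at -0.11.

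INSIG1, which retains SCAP in the endoplasmic reticulum, stood at 251, 264 and 239.8 CPM after vehicle and 421, 463 and 441 after HGF. The groups lay far apart, a 1.76-fold rise (log2 change 0.81 with SE 0.05, adjusted p = 6.88e-14). HMGCS1, the enzyme that makes HMG-CoA, was at 389, 463 and 378 CPM after vehicle and 617, 692 and 649.6 after HGF (log2 change 0.67 with SE 0.08, adjusted p = 8.81e-06). The lowest HGF library was above the highest vehicle library. STARD4, which carries cholesterol between membranes, was at 48.5, 49.8 and 43.4 CPM after vehicle and 63.1, 71.5 and 68.8 after HGF (log2 change 0.52 with SE 0.09, adjusted p = 0.00027). IDI1, isopentenyl-diphosphate isomerase, was at 109, 112 and 106 CPM after vehicle and 143, 159 and 159 after HGF (log2 change 0.49 with SE 0.07, adjusted p = 3.96e-05). Neither pair of groups overlapped.

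MSMO1, the sterol methyl oxidase, was at 115, 122 and 111 CPM after vehicle and 148, 166 and 151 after HGF (log2 change 0.42 with SE 0.11, adjusted p = 0.016). Its call was lost without vehicle replicate 1, vehicle replicate 3 or HGF replicate 2, with adjusted p up to 0.0691. SQLE, squalene epoxidase, a rate-limiting enzyme, was at 153, 168 and 151 CPM after vehicle and 196, 199 and 195 after HGF (log2 change 0.32 with SE 0.05, adjusted p = 5.32e-06). GPAT3, a glycerol-phosphate acyltransferase that opens triglyceride synthesis, was at 5.01, 4.83 and 4.76 CPM after vehicle and 6.5, 6.16 and 6.36 after HGF (log2 change 0.38 with SE 0.09, adjusted p = 0.00145). Both genes had all 3 HGF libraries above all 3 vehicle libraries.

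The remaining rises were small. MVD, mevalonate diphosphate decarboxylase, was at 46.8, 47.2 and 43.1 CPM after vehicle and 57.7, 55.4 and 50.8 after HGF (log2 change 0.26 with SE 0.07, adjusted p = 0.0154). EBP, the sterol isomerase, was at 40.5, 42.7 and 41.8 CPM after vehicle and 48.1, 46 and 46.8 after HGF (log2 change 0.17 with SE 0.06, adjusted p = 0.0265). SREBF1 was at 323, 309 and 326 CPM after vehicle and 383, 355 and 356 after HGF (log2 change 0.19 with SE 0.05, adjusted p = 0.00294). With library totals MVD, EBP and SREBF1 were no longer called, with adjusted p of 0.109 for MVD, 0.367 for EBP and 0.161 for SREBF1. MVD also lost its call without vehicle replicate 3, HGF replicate 1 or HGF replicate 2, and EBP without replicate 1 or 3 of either group. With no filter on low counts EBP was not called either.

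The other regulators and the exporters were not called at 1 h. SREBF2 was at 321, 318 and 304 CPM after vehicle and 329, 329 and 313 after HGF (log2 change 0.04 with SE 0.04, adjusted p = 0.582), and SCAP at 52.5, 48 and 49.5 CPM after vehicle and 51.5, 49.7 and 50.7 after HGF (log2 change 0.02 with SE 0.05, adjusted p = 0.876). INSIG2, the second retention protein, was at 28.9, 25.3 and 24.7 CPM after vehicle and 27.5, 31.5 and 29 after HGF (log2 change 0.16 with SE 0.08, adjusted p = 0.17). ABCA1 was at 26.3, 23.2 and 25.8 CPM after vehicle and 21.7, 24 and 26.3 after HGF (log2 change -0.06 with SE 0.07, adjusted p = 0.67). In these 4 genes the groups overlapped. ABCG1 was at 6.12, 6.29 and 6.78 CPM after vehicle and 17, 7.06 and 7.32 after HGF (log2 change 0.69 with SE 0.26, adjusted p = 0.0884), with replicate 1 of HGF well above the other two.

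At 4 h of HGF the response was broader: 24 of the 35 genes rose, 6 fell and 5 were not called. Of all genes tested, 33.1% were called higher and 34.8% lower, so a call in either direction was common (67.9% of all genes, 85.7% of these). The median log2 fold change was 0.31, against -0.06 over all genes. Rises of at least 1.5-fold numbered 13 and falls of that size 3. With library totals the median of all genes was -0.35, and the split was 16 higher and 13 lower, with a median of 0.02. The HGF libraries lay wholly above the vehicle libraries in 24 of the 35 genes (68.6%) and wholly below in 8 (22.9%), against 34.5% and 36.3% of all genes. HSD17B7, though called, was not among them.

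**Figure D2:**
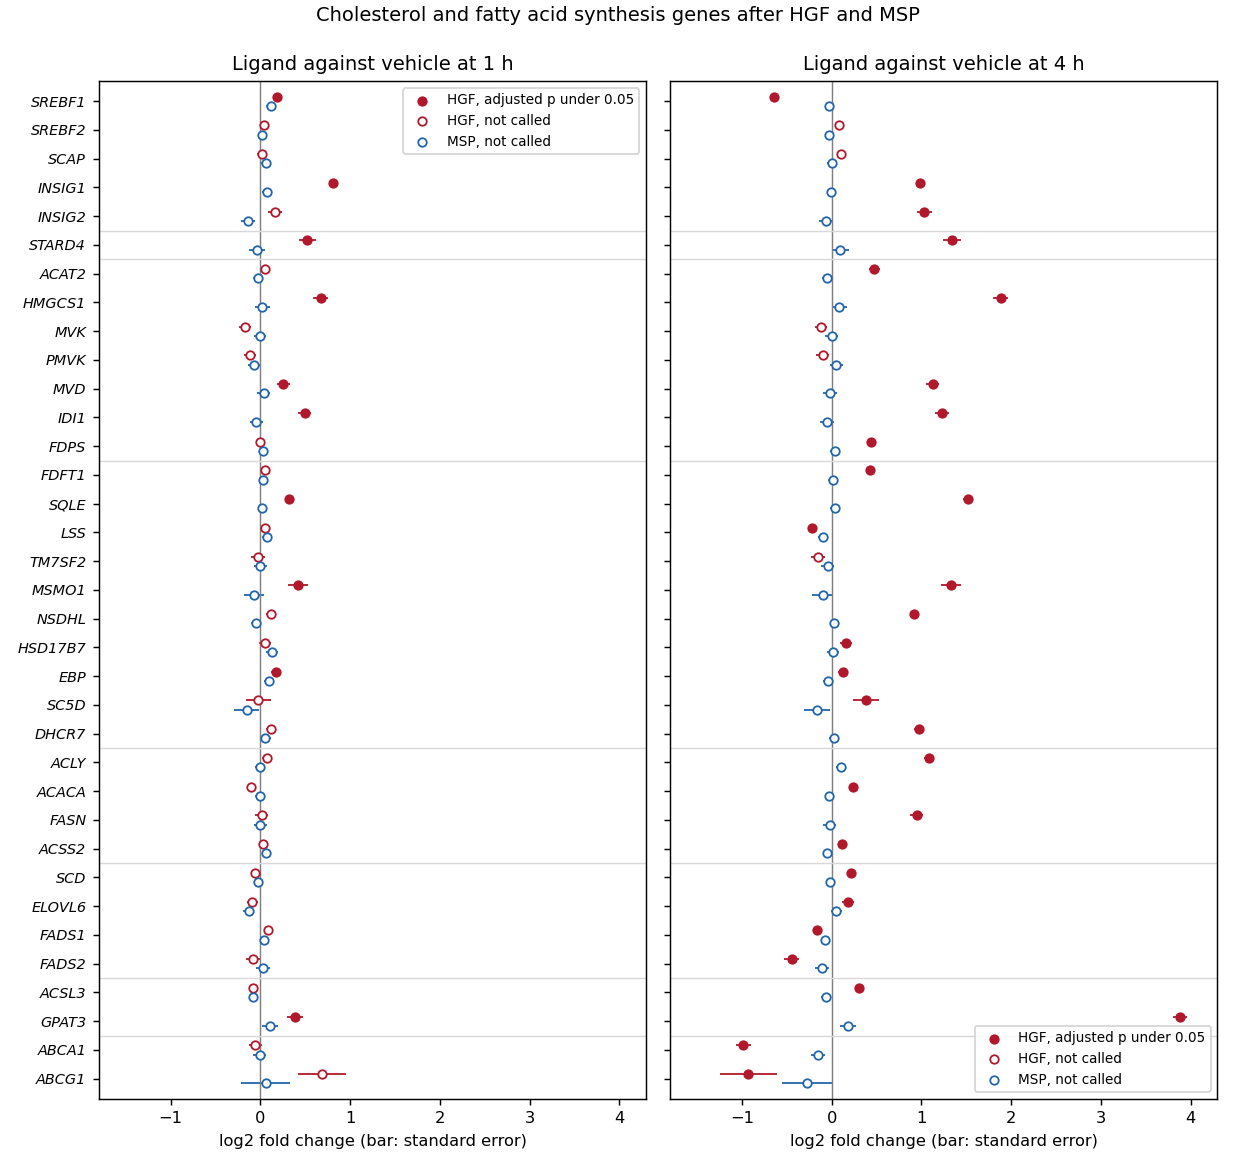
Log2 fold change against vehicle of each of the 35 tested genes, ordered by role, after HGF (red) and MSP (blue) at 1 h and 4 h; bars are standard errors and filled points are called. After HGF 10 genes are called at 1 h and 30 at 4 h, with GPAT3 at 3.89, and after MSP none is.

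GPAT3 changed most. It stood at 4.82, 4.34 and 4.34 CPM after vehicle and 65.9, 69.1 and 64.6 after HGF, a 14.8-fold rise (log2 change 3.89 with SE 0.08, adjusted p = 7.66e-27). By absolute log2 change it ranked 68 among the 16794 genes. ACSL3, which joins long-chain fatty acids to CoA, was at 319 ± 10.5 CPM after vehicle and 395 ± 21.4 after HGF (log2 change 0.31 with SE 0.05, adjusted p = 2.17e-06), and this rise was 0.02 and not called with library totals.

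In the mevalonate and isoprenoid steps 5 of 7 tested genes rose and none fell (71.4% called). Of all genes 67.9% were called, 33.1% higher and 34.8% lower. HMGCS1 was at 419, 398 and 382 CPM after vehicle and 1381, 1544 and 1503 after HGF, 3.7-fold higher (log2 change 1.89 with SE 0.08, adjusted p = 2.31e-12). IDI1 was at 104, 86.8 and 102 CPM after vehicle and 225, 217 and 244 after HGF (log2 change 1.23 with SE 0.08, adjusted p = 1.42e-11), and MVD at 67.4, 57.5 and 54.1 CPM after vehicle and 125, 138 and 129 after HGF (log2 change 1.13 with SE 0.07, adjusted p = 3.02e-12). For all 3 genes the groups lay clear of each other. ACAT2, the cytosolic thiolase at the start of the route, rose by 0.48 (SE 0.06), and FDPS, farnesyl diphosphate synthase, by 0.44 (SE 0.05). The kinases MVK (-0.12, adjusted p = 0.124) and PMVK (-0.10, adjusted p = 0.229) were not called. With library totals they were -0.41 and -0.39, both called lower, which makes the split 5 and 2. ACAT2 shares 52.3% of its exon length with genes on the opposite strand, the largest overlap being 1458 bases with SOD2-OT1. TCP1, which had 393% as many counts as ACAT2, shares 397 of its 4299 bases. Without a known strand setting, ACAT2 reads from shared exons cannot be told from those of the other genes, so its value is uncertain. FDPS, HMGCS1 and IDI1 also share 14.8% to 18.6% of their exon length with opposite-strand genes, but those held at most 0.56% as many counts. MVK shares 4.7% with MMAB on the opposite strand, which had 56.4% as many counts.

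In the squalene and sterol steps 8 of 10 tested genes rose and 1 fell (90% called), against 33.1% and 34.8% of all genes. SQLE was at 198, 175 and 186 CPM after vehicle and 520.3, 525 and 554 after HGF, 2.86-fold higher (log2 change 1.51 with SE 0.05, adjusted p = 4.65e-22). MSMO1 was at 107, 104 and 116 CPM after vehicle and 268, 262 and 294 after HGF (log2 change 1.33 with SE 0.11, adjusted p = 9.89e-08). No HGF library of either gene came near a vehicle library. DHCR7, a reductase of the last steps to cholesterol, rose from 145 ± 13 to 283 ± 9.75 CPM (log2 change 0.97 with SE 0.06, adjusted p = 2.1e-15), and NSDHL, which removes sterol methyl groups, from 54.5 ± 1.47 to 103 ± 2.87 CPM (log2 change 0.92 with SE 0.05, adjusted p = 1.67e-16). Smaller rises were those of FDFT1 by 0.43 and SC5D, a sterol desaturase, by 0.38, though SC5D was not called with library totals or without vehicle replicate 1, vehicle replicate 2 or HGF replicate 3. HSD17B7, a ketosteroid reductase, rose by 0.16 and EBP by 0.13. With library totals they turned to -0.13 (HSD17B7, not called) and -0.16 (EBP, called lower). HSD17B7 also lost its call without vehicle replicate 2 or 3 or HGF replicate 1 or 3, and EBP without vehicle replicate 1 or 3 or HGF replicate 2 or 3. LSS, which closes the sterol rings, fell by 0.22 (SE 0.05), and TM7SF2, a sterol reductase, was not called (-0.15, adjusted p = 0.0867), but was called lower with library totals, at -0.44.

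All 4 fatty acid synthesis genes rose, against 33.1% of all genes called higher. ACLY, which makes cytosolic acetyl-CoA from citrate, was at 206, 163 and 179 CPM after vehicle and 388, 385 and 395 after HGF, 2.13-fold higher (log2 change 1.09 with SE 0.06, adjusted p = 2.16e-16). FASN, fatty acid synthase, was at 487, 407 and 451 CPM after vehicle and 814, 886 and 895 after HGF (log2 change 0.95 with SE 0.07, adjusted p = 7.02e-10), and the groups of both genes lay apart. ACACA, acetyl-CoA carboxylase, rose by 0.24 and ACSS2, acetyl-CoA synthetase, by 0.12. With library totals these were -0.05 (ACACA, not called) and -0.17 (ACSS2, called lower). ACSS2 also lost its call without vehicle replicate 3 or HGF replicate 2.

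Among the 4 genes that lengthen and desaturate fatty acids 2 rose and 2 fell, against 33.1% and 34.8% of all genes. SCD, at 3772 ± 145 CPM after vehicle and 4393 ± 129 after HGF, rose by 0.22 and the elongase ELOVL6 by 0.18, with library totals turning these to -0.07 and -0.11. ELOVL6 also lost its call without vehicle replicate 2. The desaturases of polyunsaturated fatty acids fell, FADS2 by 0.44 (SE 0.08) and FADS1 by 0.17 (SE 0.04). FADS1 and FADS2 share 490 bases of exon on opposite strands, of exon lengths of 10230 and 11026 bases. Reads from the shared part could be counted for either gene, and FADS1 had 1005% as many counts as FADS2.

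STARD4 and the INSIG genes rose and SREBF1 fell at 4 h. STARD4 was at 31.9, 31.7 and 32.7 CPM after vehicle and 80.7, 77.5 and 85.5 after HGF (log2 change 1.34 with SE 0.10, adjusted p = 3.55e-10). INSIG1 was at 233, 219.6 and 219 CPM after vehicle and 432, 436 and 465 after HGF (log2 change 0.99 with SE 0.05, adjusted p = 9.53e-17), and INSIG2 at 22.8, 22.4 and 22.9 CPM after vehicle and 46.4, 42.7 and 50.4 after HGF (log2 change 1.03 with SE 0.08, adjusted p = 2.64e-12). All HGF libraries of these 3 genes were above all vehicle libraries. SREBF1 went the other way, at 338, 329 and 331 CPM after vehicle and 209.9, 219 and 210.5 after HGF (log2 change -0.64 with SE 0.05, adjusted p = 2.74e-13), with no overlap. Of the SREBF1 exon length, 6.9% is shared with RAI1 on the opposite strand. RAI1 had 44.4% as many counts as SREBF1, and reads from the shared part could be counted for either gene. SREBF2, at 339, 359 and 342 CPM after vehicle and 353, 383 and 362 after HGF (log2 change 0.08 with SE 0.04, adjusted p = 0.116), and SCAP, at 61.2, 60.4 and 60.2 CPM after vehicle and 64.4, 69.2 and 62.5 after HGF (log2 change 0.11 with SE 0.05, adjusted p = 0.0704), were not called. With library totals SREBF2 was -0.21 and SCAP -0.18, both called lower.

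The exporters fell. ABCA1, which loads cholesterol onto apolipoproteins, was at 22.2, 18.5 and 22.1 CPM after vehicle and 9.94, 10.4 and 11.4 after HGF, 1.98-fold lower (log2 change -0.98 with SE 0.08, adjusted p = 9.85e-12). ABCG1, which passes sterol to lipoprotein particles, was at 5.41, 6.75 and 7.15 CPM after vehicle and 3.65, 3.02 and 3.49 after HGF (log2 change -0.93 with SE 0.32, adjusted p = 0.0191). In both genes the HGF libraries lay below the vehicle libraries. The ABCG1 call was lost without vehicle replicate 3 or HGF replicate 2, with adjusted p up to 0.0646.

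**Figure D3:**
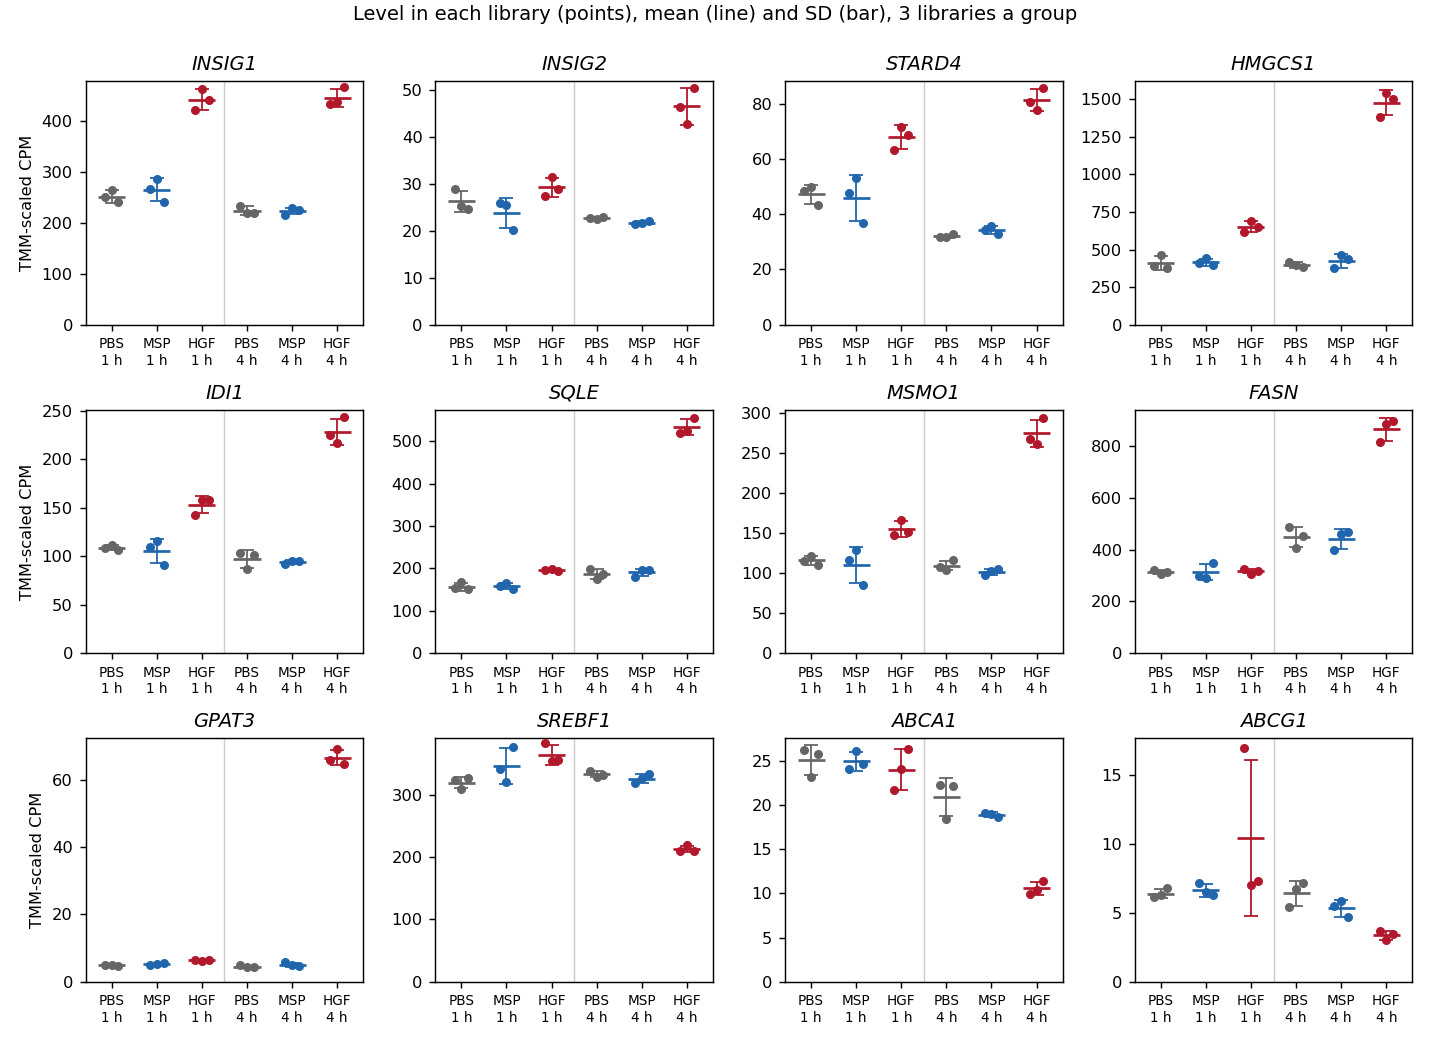
Level of 12 of the genes in every library, in TMM-scaled CPM with each axis starting at 0, after PBS vehicle (grey), MSP (blue) and HGF (red) at 1 h and 4 h; lines are means and bars SD of 3 libraries. MSP libraries lie near the vehicle libraries, while SREBF1, ABCA1 and ABCG1 are lower and the other 9 genes higher after HGF at 4 h.

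The 37 genes together took 0.841% to 0.899% of counts after vehicle at 4 h and 1.01% to 1.05% after HGF. Leaving out SCD, which holds much of that share, the values were 0.474% ± 0.016 and 0.660% ± 0.015 (SD, n = 3). These are shares of all counts, with no scaling factor applied.

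Over time, 9 genes were called higher after HGF at both 1 h and 4 h, which is 90% of the 1 h list and 37.5% of the 4 h list. The change was larger at 4 h in 8 of these 9, the exception being EBP. SREBF1 was higher at 1 h and lower at 4 h. The interaction of ligand and time, the HGF effect at 4 h minus that at 1 h, was called in 26 of 35 genes (74.3%), 20 toward higher and 6 toward lower, against 53.2% of all genes, 26.8% and 26.4% by direction. With library totals the split was 17 and 9. By smallest adjusted p the interaction was led by GPAT3 (3.50, SE 0.12), SQLE (1.19, SE 0.07) and SREBF1 (-0.83, SE 0.07). INSIG1 had a small interaction, 0.18 (SE 0.07, adjusted p = 0.0399).

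The 2 times also differed in vehicle. From 1 h to 4 h of vehicle, 14 genes rose and 4 fell, 51.4% of the 35 against 20.9% of all genes (10.9% higher and 9.99% lower), and with library totals 13 rose and 5 fell. The median was 0.11. FASN rose by 0.51 (SE 0.07), DHCR7 by 0.46 (SE 0.06), ACLY by 0.39 (SE 0.06) and ACACA by 0.35 (SE 0.05). All 4 fatty acid synthesis genes were among the risers. STARD4 fell by 0.56 (SE 0.10), ABCA1 by 0.26, INSIG1 by 0.17 and ACSL3 by 0.16. The number that fell went from 4 to 1 without replicate 2 of vehicle at 4 h, and to 2 without replicate 1 or replicate 2 of vehicle at 1 h.

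After MSP none of the 35 genes was called at either time by edgeR or DESeq2, and the interaction of MSP with time called none, against 0.322% of all genes. Of all tested genes, 0.834% were called at 1 h and 1.07% at 4 h. At an unadjusted p under 0.05 there were 2 genes at 1 h, SREBF1 (log2 change 0.11 with SE 0.05, adjusted p = 0.52) and ELOVL6 (log2 change -0.13 with SE 0.06, adjusted p = 0.659), and 0 at 4 h. The 95% interval of the MSP effect lay within 1.25-fold in either direction for 33 of 35 genes at 1 h and for 31 of 35 at 4 h. These intervals use 12 residual degrees of freedom and not those of the quasi-likelihood test, so the 2 can differ. For ELOVL6 at 1 h the interval, -0.263 to 0.0069, includes no change. The widest bounds belonged to ABCG1, from -0.53 to 0.64 at 1 h and down to -0.89 at 4 h, and the highest at 4 h to GPAT3, 0.39. A rise of the size HGF gave in HMGCS1 or SQLE at 4 h lay outside these bounds.

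INSIG1 was at 267, 286 and 241 CPM after MSP at 1 h and 216, 229 and 225 at 4 h, and HMGCS1 at 411, 442 and 395 at 1 h and 375, 462 and 437 at 4 h. GPAT3 was at 5.08, 5.18 and 5.52 CPM at 1 h and 5.72, 4.85 and 4.67 at 4 h. SREBF1 was at 341, 319.9 and 377 CPM at 1 h and 318, 326 and 333 at 4 h, and ABCA1 at 24.1, 26.1 and 24.6 at 1 h and 19.1, 18.9 and 18.6 at 4 h. Each of these ranges overlapped that of its vehicle group except GPAT3 at 1 h, where MSP lay above vehicle without a call (log2 change 0.11, adjusted p = 0.842). The MSP libraries at 1 h differed from each other more than those of other groups did, with a chi-square per degree of freedom over genes of 7.196 to 20.21 between pairs, against at most 5.752 elsewhere. Replicate 3 was the lowest of them for STARD4 (47.7, 53.2 and 36.9 CPM), MSMO1 (116, 129 and 84.9) and IDI1 (110.1, 116 and 91.3) and the highest for SREBF1. Without any 1 of these libraries the count of calls after MSP stayed at 0.

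Compared directly, HGF was above MSP for 10 genes at 1 h and below it for none, against 17.7% of all genes called, 11.4% higher and 6.36% lower. With library totals the split was 6 and 6, and with only these 2 groups in the fit 5 genes were called. INSIG1 led (log2 change 0.74 with SE 0.05, adjusted p = 8.18e-13), followed by SQLE (0.31), HMGCS1 (0.65), IDI1 (0.54), STARD4 (0.56), INSIG2 (0.30), MSMO1 (0.49) and NSDHL (0.16). At 4 h HGF was above MSP for 23 genes and below it for 5, against 66.4% of all genes called, 32.7% higher and 33.8% lower, and the split was 16 and 15 with library totals. GPAT3 was 13-fold higher after HGF than after MSP (log2 change 3.70 with SE 0.08, adjusted p = 1.53e-26), SQLE 2.79-fold and INSIG1 1.99-fold higher, while SREBF1 was 1.53-fold lower. The doses, 80 and 100 ng/ml, differ and are of different proteins. The comparisons of each ligand with vehicle share their vehicle libraries.

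Genes around the pathway were read from 8 lists holding 153 genes, 139 of them tested. The calls and changes of these lists are with TMM scaling only and were not recounted with library totals. For the 35 genes above, library totals moved the median after HGF at 4 h from 0.31 to 0.02. At 4 h of HGF 64 were called higher and 40 lower, 74.8% against 67.9% of all genes, and at 1 h 22 and 9, 22.3% against 21%. Among genes of SREBP cleavage and sterol sensing, 10 of 15 rose at 4 h and 2 fell (80% called), against 33.1% and 34.8% of all genes. RNF145, a sterol-responsive ubiquitin ligase, was at 75.1 ± 2.7 CPM after vehicle and 132 ± 5.07 after HGF (log2 change 0.81 with SE 0.05, adjusted p = 3.83e-16). SPRING1, which is needed for SREBP cleavage, rose by 0.31 at 1 h. Among genes of sterol uptake, transport and esterification, 9 of 22 rose and 7 fell (72.7% called), which lies near the shares of all genes. LRP8, a lipoprotein receptor that overlaps an antisense gene, went from 28 ± 3.23 to 120.0 ± 5.63 CPM (log2 change 2.10 with SE 0.06, adjusted p = 4.75e-23), and NPC1, which moves cholesterol out of lysosomes, rose by 0.76 at 1 h and 1.22 at 4 h.

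Of 11 tested LXR receptors and targets, 6 fell at 4 h of HGF and 2 rose, 72.7% against 67.9% of all genes called and 34.8% called lower. MYLIP, an LXR-induced ubiquitin ligase for lipoprotein receptors, fell by 0.64 at 1 h and by 1.47 at 4 h (SE 0.08), from 18.7 ± 0.327 to 6.78 ± 0.3 CPM. SMPDL3A, a phosphodiesterase, fell by 1.32 at 4 h.

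The share of genes called in the remaining lists ran from 57.9% to 94.7%, on both sides of the 67.9% of all genes (33.1% higher, 34.8% lower). In the isoprenoid branch 9 of 14 rose and 3 fell at 4 h, with NUS1, a subunit of the enzyme that makes dolichol precursors, at 1.34. Of 19 genes of acylglycerol synthesis, storage and breakdown, 12 rose and 6 fell. Among the risers were the acyltransferase AGPAT5 at 1.15 and MGLL, a lipase that breaks down monoglyceride, at 1.12. At 1 h the acyltransferases GPAT4 (0.39) and AGPAT2 (0.37) rose. Other elongases, desaturases and acyl-CoA synthetases split 7 higher and 4 lower of 19 (57.9%), with ELOVL1 at 1.15 and ACSL5, which overlaps ZDHHC6 on the opposite strand, at 1.21. Fatty acid oxidation and AMPK genes split evenly, 8 and 8 of 21 (76.2%), with the AMPK subunit PRKAG2 at 1.26. Among other regulators of lipogenesis 7 of 18 rose and 4 fell (61.1%). MLX, the partner of carbohydrate-responsive factors, was at 1.46, and NFYA, a subunit of NF-Y, rose by 0.47 at 1 h and 0.74 at 4 h.

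The promoter matches were then set beside the changes at 4 h of HGF. Of 22 tested genes with CCAAT in a window, 17 rose, 2 fell and 3 were not called, with a median log2 fold change of 0.35. Of 8 without it, 3 rose, 3 fell and 2 were not called, with a median of 0.01. Of 6 genes with TCACNCNAC, 4 rose and 1 fell with a median of 0.14, against 0.28 in those without it, and of 5 with CACGTG, 2 rose and 2 fell with a median of 0.11, against 0.24. With GGGCGG, which all but 1 of the genes held, 19 of 29 rose and 5 fell. None of these differences was tested. The genes without CCAAT included ABCA1 and SREBF1, which fell, and also GPAT3 and INSIG2, which rose by 3.89 and 1.03. MSMO1 held 4 CCAAT matches in its printed window, and HMGCS1 and STARD4 held 2 each. In the windows drawn, NSDHL, which rose by 0.92, and MVK, which was not called, held 5 each. MVD, FDPS and EBP, which rose by 1.13, 0.44 and 0.13, held 3 each.

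**Figure D4:**
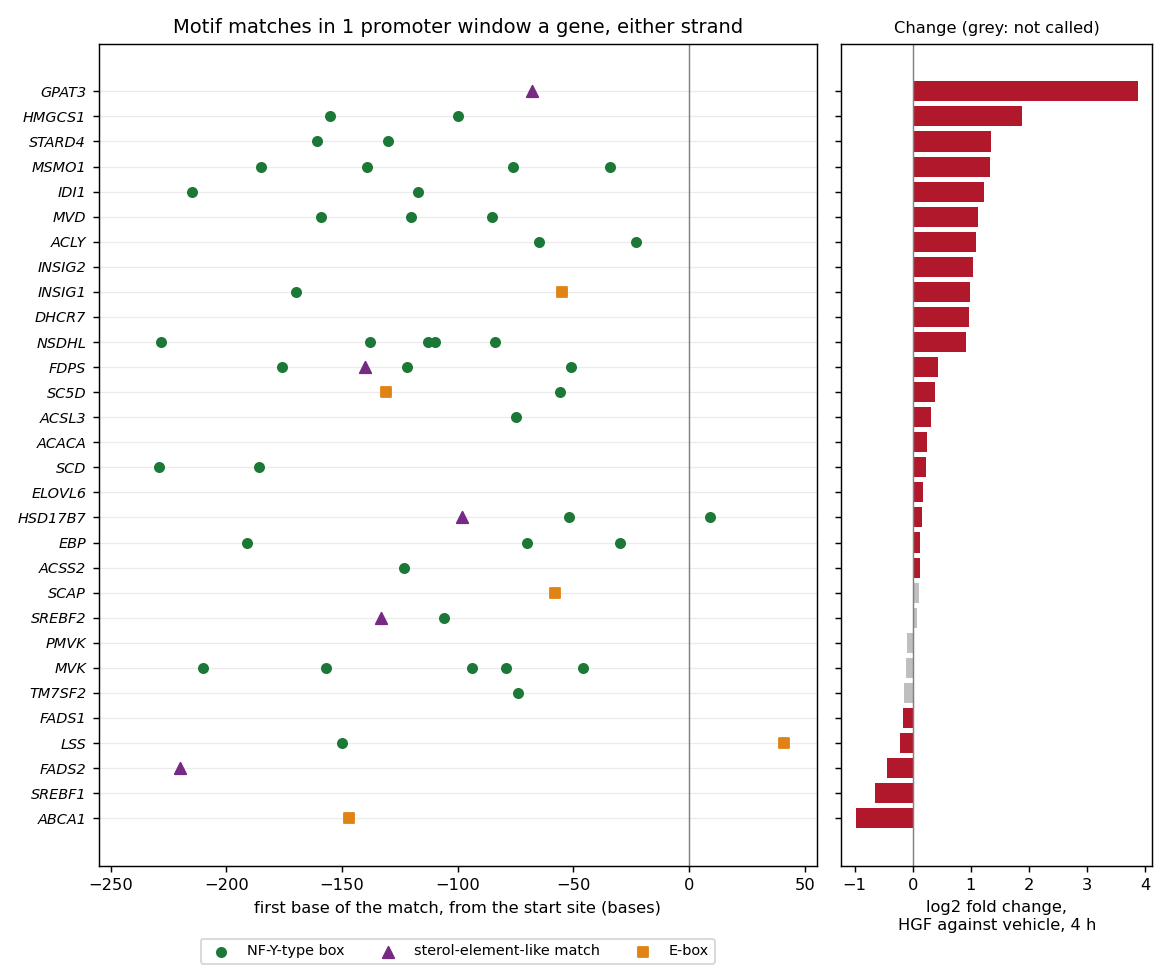
Left, position of motif matches on either strand in 1 RefSeq promoter window per gene, in bases from the start site, with genes ordered by their change; matches in other windows of a gene are not drawn. Right, log2 fold change after HGF at 4 h, in grey where not called. Most genes in the upper rows hold a green match (CCAAT), and so do many in the lower rows, among them SREBF2, MVK, TM7SF2 and LSS. GPAT3, at the top with 3.89, holds a purple one (TCACNCNAC).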

How the data were processed

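Libraries of BxPC-3 RNA came from the KAPA mRNA HyperPrep kit and each was run on 2 lanes, per the labels. The deposited table gives whole-number read counts per Ensembl gene in 18 columns, 1 per sample with its lanes combined, and per the submitters' processing notes STAR, featureCounts and Subread were used. Not given in the sources used here are the genome build, annotation and strand setting. Symbols came from the reference name table (57754 of 58395 lines), and exon lengths and overlaps from GENCODE 29.

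Counts were tested with edgeR 4.0.16 in R 4.3.3 (robust quasi-likelihood F test, TMM scaling, minimum count 10 and total 15, 1 mean per group over all 18 libraries), with Benjamini-Hochberg adjustment over 16794 genes. The steps were run on simulated counts in which a small part of the genes changed. That setting does not cover a change as broad as that of HGF at 4 h. Alternatives were DESeq2 1.42.0, library totals, relative log expression (RLE) size factors, no filter, only the groups compared, a replicate block and leaving out each library. Counting error is small for the tested genes, with a lowest median of 204.5 counts, and intervals cover the spread between libraries.

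The genes and lists were chosen with earlier results of these data known. Values in every library are given for regulators, exporters and, per comparison of a ligand with vehicle, up to 10 called genes with the largest change and separate libraries. Up to 2 genes per related list are named by smallest adjusted p, and up to 8 genes in the other comparisons. Some genes of these pathways and lists are not reported here.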

Additional observations from a re-analysis of the deposited data

Results flagged for a closer look

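The HGF effect differed between 4 h and 1 h in 26 of the 35 tested genes, by the interaction term in edgeR with Benjamini-Hochberg adjustment. The 8 with the smallest adjusted p are given as the log2 effect at 4 h minus that at 1 h. GPAT3 was at 3.50 (adjusted p = 2.02e-20), SQLE at 1.19 (3.31e-15) and ACLY at 1.02 (6.74e-12). DHCR7 was at 0.85 (2.51e-10), INSIG2 at 0.88 (1.31e-07) and NSDHL at 0.81 (3.88e-11). Toward lower values, ABCA1 was at -0.93 (3.1e-08) and SREBF1 at -0.83 (4.83e-12).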

How the results depend on the processing

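Of the 10 genes called after HGF at 1 h, 6 kept their call under each of 12 alternatives, and of the 30 at 4 h, 21 did. Scaling by library totals reversed 6 small rises at 4 h of HGF: ACACA to -0.047, ACSS2 to -0.17, EBP to -0.16, ELOVL6 to -0.11, HSD17B7 to -0.13 and SCD to -0.071. Of these, ACSS2 and EBP were then called lower and the others were not called. With only the groups compared, HGF against MSP at 1 h gave 5 called genes in place of 10. Leaving out 1 library at a time gave 7 to 10 calls for HGF at 1 h, 26 to 29 at 4 h, 7 to 10 and 25 to 27 for HGF against MSP, 25 to 26 for the HGF interaction, 12 to 17 for vehicle over time and 0 for MSP. Where an arm kept 2 libraries the spread came from all groups. The cause of these changes was not tested. Same-numbered libraries correlated at -0.05 to 0.09 over 21 pairs, none above 0.1, so the numbers were not taken to pair samples. With the replicate block the counts were 10 and 30 for HGF, 10 and 29 for HGF against MSP, 26 for the interaction, 18 for vehicle and 0 for MSP. The interaction of MSP with time called 0 genes by edgeR or DESeq2, with 3 at an unadjusted p under 0.05. ABCG1, at 6.44 ± 0.914 CPM after vehicle at 4 h, is the tested gene where precision is lowest (SE 0.32).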

Other observations

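Of the 139 tested genes of the related lists, 2 were called higher after MSP at 4 h and 0 lower (1.44%), a share near the 1.07% of all genes called. LRP8, a lipoprotein receptor, was 1 of them. It stood at 28 ± 3.23 CPM after vehicle and 36.5 ± 2.09 after MSP (log2 change 0.38 with SE 0.06, adjusted p = 0.00215). After HGF at 4 h its log2 change was 2.10, in a comparison that shares the vehicle libraries.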
